A study of Homo sapiens with 60 samples.

Results

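The 45 genes described here act in the G2 phase and in mitosis of the cell cycle, and all are rows of a count table of 60675 genes. They were picked by symbol, through the Ensembl identifier of each row, from the classes of gene that drive entry into mitosis, build the spindle, hold and then split the chromosomes, and divide the cell. HT29 cells, an established line from a human colorectal adenocarcinoma, were cultured for 24 h with vehicle (DMSO, 0.1% per the labels and 2% per the series text), with a PI3K inhibitor, wortmannin or LY294002, at 10 µM, or with a water extract of 1 of 6 herbs, each given at 20, 100 and 500 µg/mL per the labels. The series text speaks of lower doses, set by the IC20, for extracts that it does not name, so the doses of some extracts may be lower than labelled. The extracts were of Poria Cocos, Panax Ginseng, Paeoniae Radix, Atractylodis Rhizoma, Angelicae Gigantis Radix and Glycyrrhizae Radix (licorice root), called Poria, Ginseng, Paeoniae, Atractylodis, Angelicae and Glycyrrhizae from here on. This made 21 groups and 60 libraries: 3 libraries in each group, except 2 in each of the 3 Paeoniae groups. All titles carry the label BatchA. The sample codes of the vehicle libraries begin with a letter A that those of the inhibitors lack, and what the codes mean is not given. The labels do not say whether libraries of a group came from separate cultures, so the p-values measure the spread between these libraries, which may be technical.

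A dividing cell turns on its mitotic genes late, after DNA replication. CDK1 bound to cyclin A or cyclin B starts mitosis, and the Polo and Aurora kinases shape the spindle. The checkpoint proteins delay the separation of the chromosomes until each is attached. The anaphase-promoting complex, with CDC20, then marks securin and cyclin B for destruction. The genes for these proteins are known to be switched together by the MuvB complex, which represses them as DREAM in resting cells and activates them with B-MYB and FOXM1 in G2. In bulk RNA from a growing culture, fewer cells in G2 and mitosis and less RNA per cell cannot be told apart. PI3K carries growth-factor signals through AKT, and both inhibitors block it, wortmannin by a covalent bond and LY294002 reversibly.

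Counts summed to 20431980 to 35477712 per library, and all 45 genes passed the filter on low counts, which kept 16767 genes. Levels are in CPM (counts scaled to a common library size) with TMM scaling, and a gene counts as risen or fallen at an adjusted p under 0.05 (edgeR quasi-likelihood test, Benjamini-Hochberg over all 16767 genes). Colorectal epithelial markers, 9 of 10 of which averaged at least 1 CPM, summed to 12030 to 12513 CPM in vehicle, 13633 to 14147 CPM with wortmannin and 15067 to 17037 CPM with LY294002. Markers of fibroblasts and endothelium summed to at most 3.47 CPM in any library. Of these, COL1A1, LUM, PECAM1 and TEK averaged 1.26, 0.80, 1.70 and 0.70 CPM, and COL1A2, DCN, CDH5 and KDR averaged under 0.02 CPM. Of the leukocyte markers, CD14, CD68 and ITGAM were detected, PTPRC averaged under 0.03 CPM, and the sum was 12.1 to 13.7 CPM in vehicle, 12.04 to 16.6 CPM with wortmannin and 8.93 to 10.3 CPM with LY294002. The hepatocyte markers summed to 20.6 to 25.6, 24.6 to 26.8 and 25.7 to 31.1 CPM in these 3 groups, nearly all from APOH, with ALB averaging under 0.01 CPM. The share of counts from mitochondrial genes was highest in vehicle (9.96% ± 1.38, SD, n = 3), and averaged 9.17% with wortmannin, 9.27% with LY294002, 8.93% with Glycyrrhizae at 500 µg/mL, 8.86%, 8.41% and 7.77% with Poria at 20, 100 and 500 µg/mL, and 7.56% to 9.17% over all extract groups. The part of these differences in the results was not tested.

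In vehicle, levels per kilobase of exon spanned from 98.0 ± 6.10 CPM per kb (SD, n = 3) for TPX2, which loads Aurora A onto the spindle, to 4.89 ± 0.11 CPM per kb for CDC25C, a phosphatase that activates CDK1. After TPX2 came UBE2C and UBE2S, the ubiquitin-conjugating enzymes of the anaphase-promoting complex, at 84.4 ± 1.22 and 80.8 ± 1.91 CPM per kb, then MKI67 (Ki-67, the classical proliferation antigen) at 79.4 ± 9.02 and CKS2, a small CDK1 subunit, at 71.7 ± 9.05 CPM per kb. The libraries of MKI67 (73.7 to 89.8 CPM per kb) overlapped those of UBE2C, UBE2S and CKS2, and those of CKS2 also overlapped UBE2S, so the order within these pairs is not beyond their spread. At the low end stood CDC25C, then separase (ESPL1) and NUF2 at 5.92 CPM per kb each, and the centromeric histone CENPA at 7.55 ± 0.53 CPM per kb. The length used is that of all annotated exons of a gene, which can exceed the length of the RNA that the cells make. The order between genes therefore also depends on the annotation and is not a ranking of RNA molecules.

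Upstream sequence of 38 of the 45 genes was found in RefSeq (GRCh38.p14), and AURKA, BIRC5, FOXM1, RACGAP1, TPX2, TTK and UBE2C had no entry. The motifs looked for on both strands were TTTGAA and TTTAAA, forms of the cell cycle genes homology region (CHR) that MuvB is known to bind, and CCAAT, which NF-Y binds. In the 250 bases before the start, TTTGAA was present in 22 of 38 genes (57.9%) against 13.6% of 27305 promoters, TTTAAA in 10 (26.3%) against 11.4%, and CCAAT in 31 (81.6%) against 33.0%. Both TTTGAA and CCAAT were found in 20 of 38 (52.6%), against 5.24% of all promoters with CCAAT and either TTTGAA or TTCGAA, a further form that no member held. A match is a description of letters and not a bound site. Below are the 120 bases before the start for PLK1 and PTTG1, the members with the largest falls with LY294002 and with wortmannin, for MKI67, which differed most between the inhibitors, for CCNB1, the cyclin B1 partner of CDK1, and for CKS2, which changed least with LY294002. Capitals mark these 3 motifs on either strand, and positions are GRCh38.
PLK1 (chr16:23678769-23678888, plus strand): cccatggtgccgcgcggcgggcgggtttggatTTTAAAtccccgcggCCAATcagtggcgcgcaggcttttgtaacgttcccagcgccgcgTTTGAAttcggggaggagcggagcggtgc
MKI67 (chr10:128126424-128126543, minus strand): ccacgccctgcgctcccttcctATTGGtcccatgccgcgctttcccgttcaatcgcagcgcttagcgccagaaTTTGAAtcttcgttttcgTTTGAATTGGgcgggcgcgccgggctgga
CCNB1 (chr5:69167030-69167149, plus strand): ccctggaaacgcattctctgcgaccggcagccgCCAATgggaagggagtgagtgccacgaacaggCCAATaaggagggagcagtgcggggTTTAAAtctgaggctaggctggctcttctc
PTTG1 (chr5:160421735-160421854, plus strand): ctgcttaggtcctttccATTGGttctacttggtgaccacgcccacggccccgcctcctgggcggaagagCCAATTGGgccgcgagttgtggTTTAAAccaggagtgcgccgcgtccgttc
CKS2 (chr9:89311075-89311194, plus strand): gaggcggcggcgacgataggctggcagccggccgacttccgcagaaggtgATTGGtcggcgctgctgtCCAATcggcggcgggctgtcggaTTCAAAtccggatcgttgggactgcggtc
PLK1 held 1 TTTAAA, 1 CCAAT and 1 TTTGAA in this stretch, MKI67 held TTTGAA at more than one place, and CCNB1 and PTTG1 held TTTAAA without TTTGAA. CKS2 also carried these letters, with the CHR form on the opposite strand (TTCAAA). Members with and without TTTGAA had close medians with LY294002, -0.69 over 22 genes and -0.60 over 16, within ranges that overlapped (-1.08 to -0.24 and -0.89 to -0.42). With wortmannin the medians were -0.39 and -0.42. Members without TTTGAA included some with TTTAAA, such as CCNB1 and PTTG1. Members with and without TTTAAA had medians of -0.54 over 10 genes and -0.38 over 28 with wortmannin. Their ranges overlapped (-0.71 to -0.11 and -0.69 to -0.13), and with LY294002 the medians were -0.61 and -0.65. Whether the motifs bear on the changes was not tested.

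Both inhibitors lowered nearly the whole set. With wortmannin, 41 of 45 genes fell, where 7.46% of all genes fell, and with LY294002, 44 of 45 fell, where 20.5% of all genes fell. The median log2 fold change of the 45 genes was -0.42 with wortmannin and -0.65 with LY294002, and that of all genes tested was 0 and 0.0070. No member rose with either inhibitor. LY294002 gave the lowest mean of all 21 groups for 43 of 45 genes. When any 1 library was left out, 39 to 41 genes fell with wortmannin and 44 to 45 with LY294002.

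**Figure D1:**
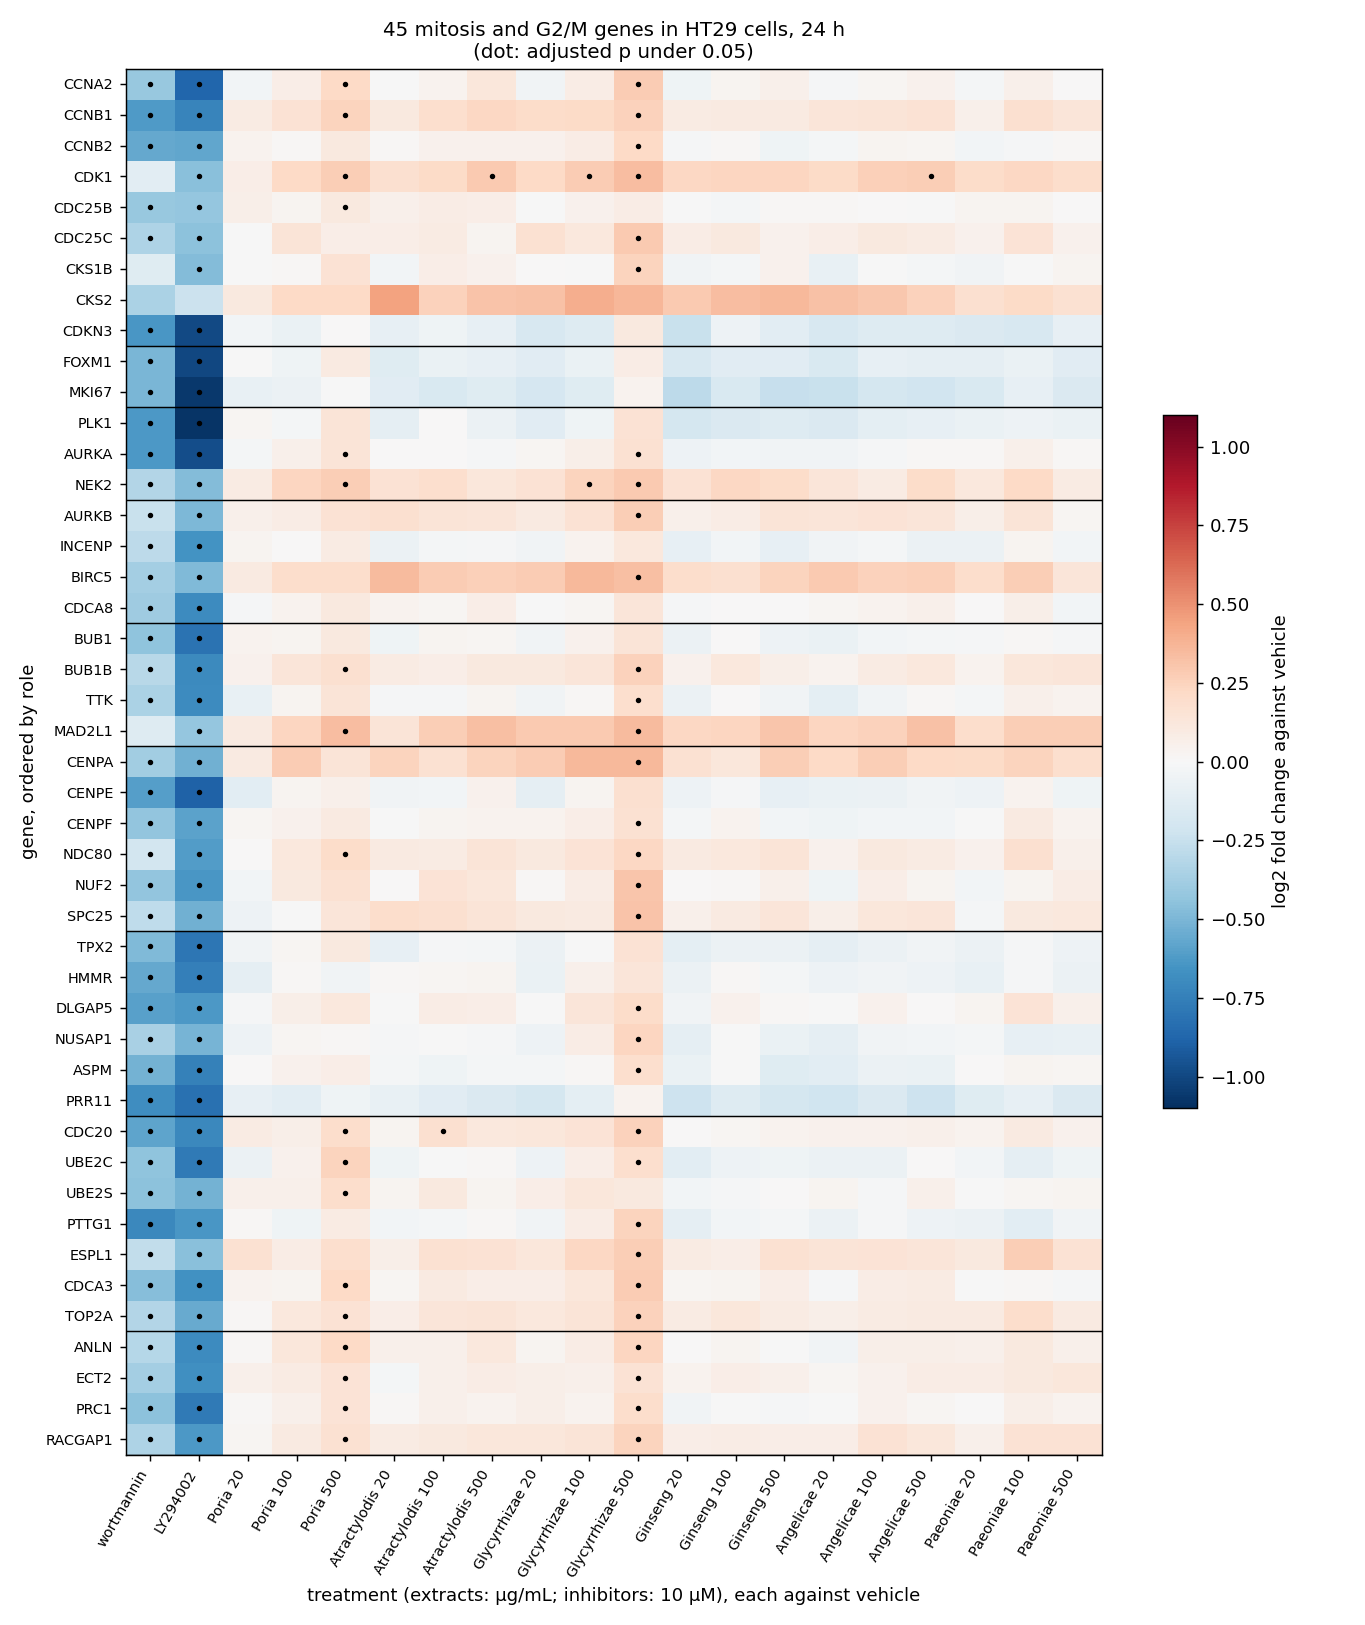
Log2 fold change against vehicle of the 45 genes (rows, grouped by role) in 20 treatments (columns), with a dot where the adjusted p was under 0.05. The columns of wortmannin and LY294002 are blue with 41 and 44 dots, and the column of Glycyrrhizae at 500 µg/mL is red with 31 dots. That of Poria at 500 µg/mL has 18 dots and is red except for MKI67, HMMR and PRR11, which are below 0.

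The mean log2 CPM of the 45 genes, taken in each library less the vehicle mean, shows how tight the groups were. It was -0.03 to 0.02 in vehicle, -0.45 to -0.39 with wortmannin and -0.72 to -0.62 with LY294002, so the 3 groups did not overlap. Among 51 extract libraries the mean reached 0.21 to 0.22 with Glycyrrhizae and 0.13 to 0.16 with Poria at 500 µg/mL. All other extract libraries lay between -0.04 and 0.12.

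**Figure D2:**
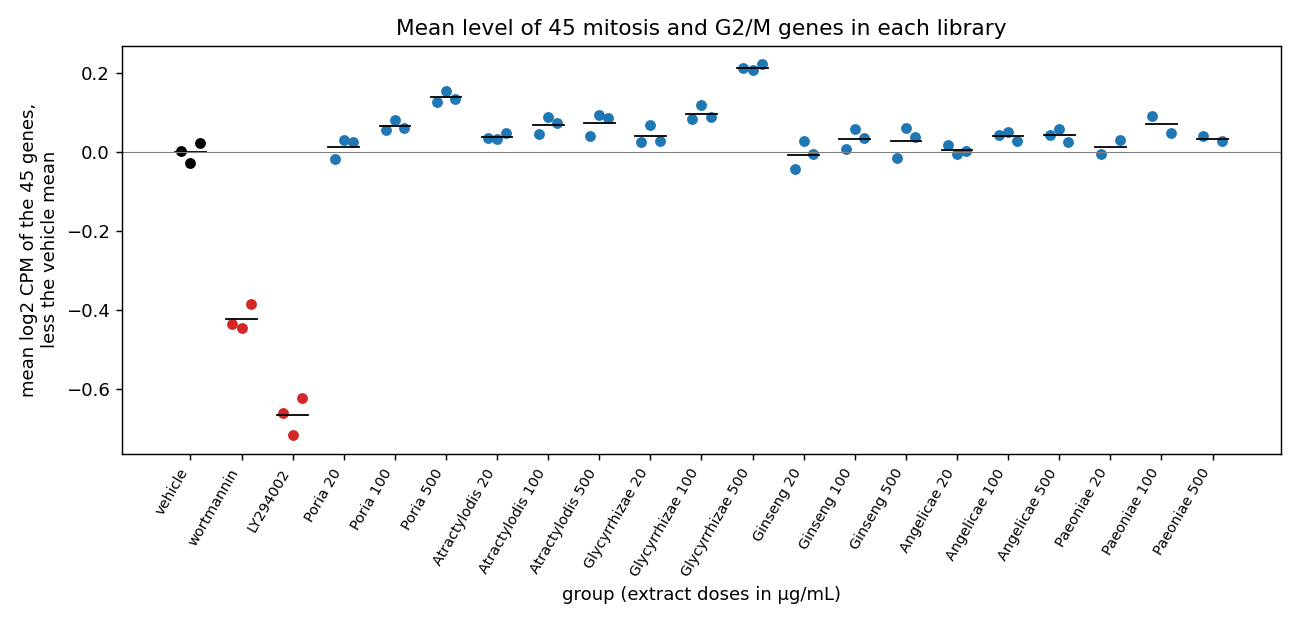
Mean log2 CPM of the 45 genes in each library (points) less the mean of the vehicle libraries, by group, with a line at the group mean. Wortmannin (-0.45 to -0.39) and LY294002 (-0.72 to -0.62) lie below all other libraries, and Glycyrrhizae at 500 µg/mL (0.21 to 0.22) lies above all others.

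Among 9 genes of the cyclin and CDK1 engine, 6 fell with wortmannin and 8 with LY294002. CDKN3, a phosphatase that acts on CDKs (ENSG00000100526), was at 39.4, 39.7 and 41.8 CPM in the vehicle libraries, 24.9, 26.2 and 26.7 with wortmannin and 21.5, 19.9 and 19.4 with LY294002. The 3 groups did not overlap, and the log2 fold changes were -0.64 ± 0.06 (SE, adjusted p = 1.66e-10) and -0.99 ± 0.06 (adjusted p = 3.37e-17). CCNB1, cyclin B1, fell from 146, 135 and 127 CPM to 92.6, 88.1 and 84.1 with wortmannin and 78.7, 74.1 and 93.5 with LY294002. The inhibitor libraries of CCNB1 overlapped each other and lay below vehicle. The cyclin-dependent kinase itself moved less against vehicle: CDK1 was at 78.4, 77.6 and 69.0 CPM in vehicle, 73.5, 67.1 and 67.5 with wortmannin and 50.9, 52.4 and 59.9 with LY294002. All vehicle libraries of CDK1 lay below 50 of the 51 extract libraries, so the size of its fall depends on the vehicle libraries.

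CDK1 libraries of vehicle and wortmannin overlapped, with a log2 fold change of -0.11 ± 0.06 (adjusted p = 0.262), whereas all LY294002 libraries were lower (-0.46 ± 0.06, adjusted p = 7.5e-08). CKS1B, the other small CDK subunit, had the same order, with 102, 97.7 and 101 CPM in vehicle, 80.8, 85.4 and 108 with wortmannin and 70.0, 72.9 and 72.2 with LY294002. Its log2 fold change was -0.13 ± 0.07 (adjusted p = 0.241) with wortmannin, where 1 library lay above all vehicle libraries, and -0.48 ± 0.07 (adjusted p = 3.76e-07) with LY294002. CKS2 did not pass the test with either inhibitor, with changes of -0.35 ± 0.14 (adjusted p = 0.0939) and -0.24 ± 0.14 (adjusted p = 0.17). It was at 49.0, 44.9 and 38.0 CPM in vehicle, 37.1, 35.2 and 31.3 with wortmannin and 31.3, 31.8 and 48.6 with LY294002. In LY294002 library 3, CKS2 was as high as in vehicle, and without that library all 45 genes fell. Over the 21 groups CKS2 also had the widest spread within groups, a median coefficient of variation of 8.54%, against 2.34% for ECT2, the tightest.

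FOXM1, the transcription factor of G2 genes, and MKI67 both fell with both inhibitors. MKI67 was at 944, 958 and 1151 CPM in vehicle, 664, 685 and 801 with wortmannin and 556, 481 and 423 with LY294002. Its groups did not overlap, and the log2 fold changes were -0.51 ± 0.09 (adjusted p = 4.3e-05) and -1.06 ± 0.09 (adjusted p = 1.38e-13). FOXM1 went from 209, 216 and 230.3 CPM to 144, 149.9 and 169 with wortmannin (-0.50 ± 0.05, adjusted p = 1.3e-09) and 121, 105 and 101 with LY294002 (-1.0 ± 0.05, adjusted p = 9.28e-20). FOXM1 shares 781 exon bases with ITFG2 on the opposite strand, and ITFG2 had 13.4% of the counts of FOXM1.

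All 3 mitotic kinases fell with both inhibitors. PLK1, the Polo kinase of mitotic entry (ENSG00000166851), was at 169, 167 and 194 CPM in vehicle, 106, 111 and 125 with wortmannin and 89.6, 81.4 and 79.1 with LY294002. This was the largest fall with LY294002 of the 45 genes, to 47.3% of vehicle on the fitted scale. AURKA, the Aurora kinase of the spindle poles, was at 155, 158 and 170.0 CPM in vehicle, 99.7, 99.8 and 112 with wortmannin and 81.9, 79.0 and 84.5 with LY294002. Its log2 fold changes were -0.63 ± 0.04 (adjusted p = 2.56e-15) and -0.98 ± 0.04 (adjusted p = 1.96e-22), with no overlap between the 3 groups. NEK2, a centrosomal kinase, changed less, by -0.32 ± 0.06 and -0.48 ± 0.06.

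**Figure D3:**
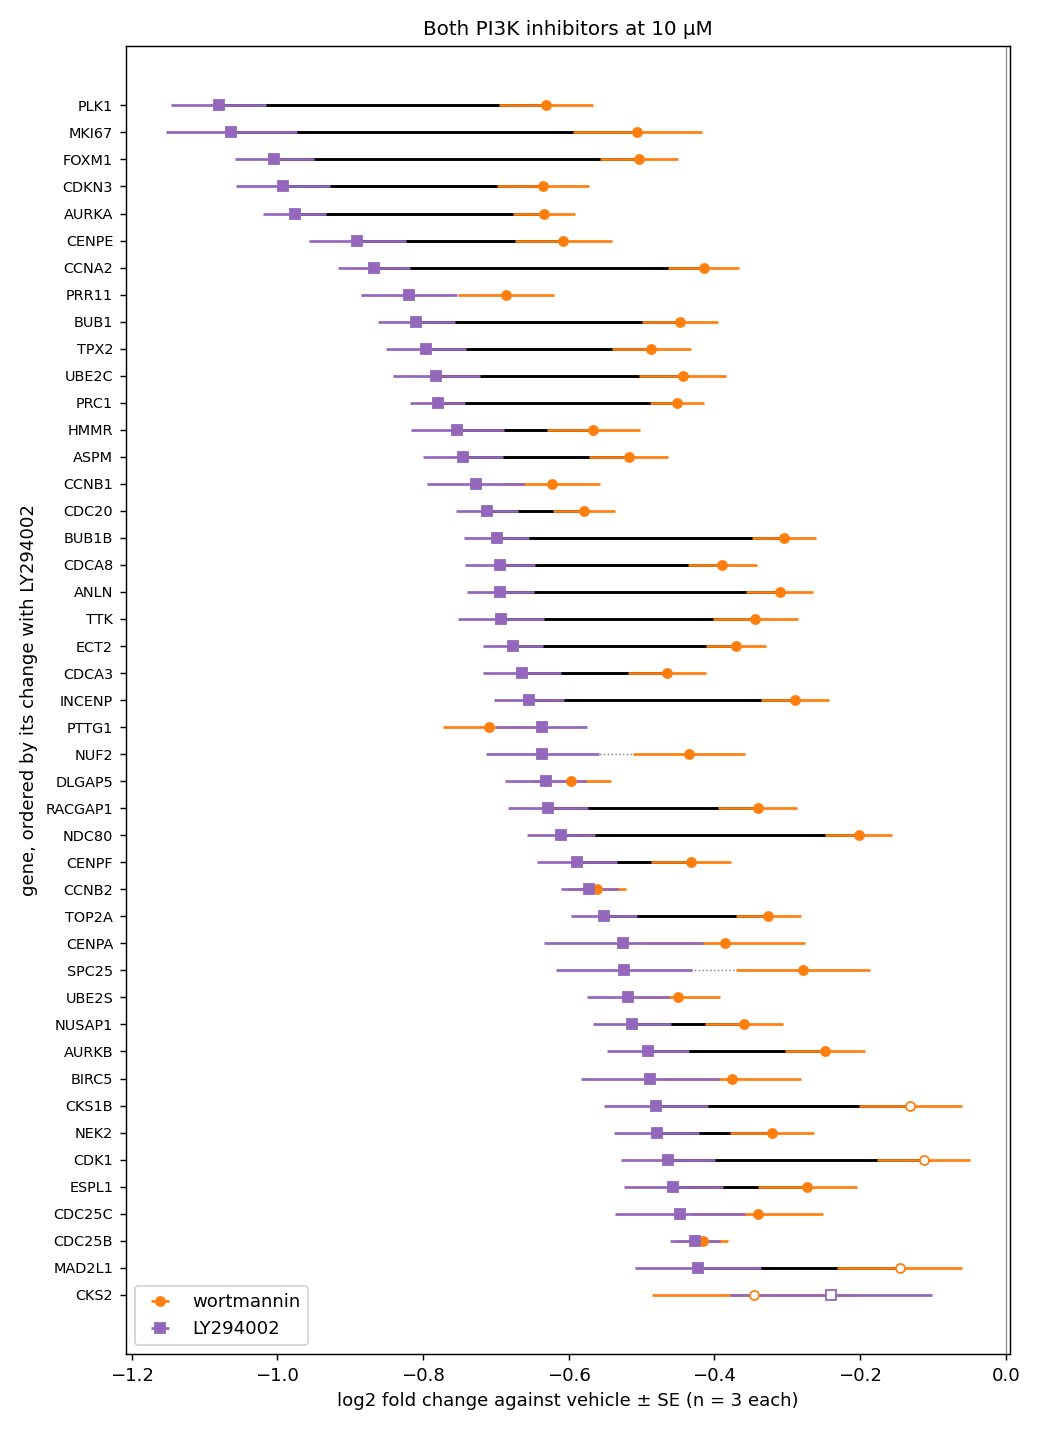
Log2 fold change against vehicle ± SE of the 45 genes with wortmannin (circles) and LY294002 (squares), open where the adjusted p was 0.05 or above, joined by a solid line where the inhibitors differed at an adjusted p under 0.05 and by a dotted line otherwise. Values run from -0.71 to -0.11 with wortmannin and from -1.08 to -0.24 with LY294002, and 32 of 45 lines are solid.

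The chromosomal passenger complex, which corrects faulty attachments and drives cytokinesis, fell in all 4 subunits with both inhibitors. CDCA8 (borealin) was at 67.5, 70.7 and 65.0 CPM in vehicle, 51.7, 51.6 and 51.8 with wortmannin and 44.5, 39.4 and 41.7 with LY294002. The log2 fold changes of CDCA8 were -0.39 ± 0.05 (adjusted p = 3.52e-08) and -0.69 ± 0.05 (adjusted p = 2.86e-16), without overlap. The enzyme of the complex, AURKB, changed by -0.25 ± 0.06 and -0.49 ± 0.06, the scaffold INCENP by -0.29 ± 0.05 and -0.65 ± 0.05, and survivin (BIRC5) by -0.38 ± 0.09 and -0.49 ± 0.09.

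Of the 4 spindle assembly checkpoint genes, 3 fell with wortmannin and 4 with LY294002. BUB1, a checkpoint kinase, was at 104, 102 and 108 CPM in vehicle, 73.8, 74.2 and 81.8 with wortmannin and 62.5, 59.7 and 56.5 with LY294002. It changed by -0.45 ± 0.05 (adjusted p = 1.12e-08) and -0.81 ± 0.05 (adjusted p = 3.67e-17), with the groups apart. BUB1B (BUBR1) changed by -0.30 ± 0.04 and -0.70 ± 0.04, and the kinase TTK (MPS1) by -0.34 ± 0.06 and -0.69 ± 0.06. MAD2L1 (MAD2), which seizes CDC20, did not pass with wortmannin (-0.15 ± 0.09, adjusted p = 0.288). Its libraries were at 70.7, 68.2 and 59.995 CPM in vehicle, 65.8, 55.9 and 58.2 with wortmannin and 47.4, 44.7 and 56.3 with LY294002, the last below all vehicle libraries (-0.42 ± 0.09, adjusted p = 9.46e-05).

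The 6 kinetochore and centromere genes fell with both inhibitors. CENPE, the kinetochore motor, was at 72.7, 72.3 and 78.1 CPM in vehicle, 48.8, 47.7 and 49.97 with wortmannin and 41.0, 38.7 and 40.7 with LY294002. Its groups lay apart, with log2 fold changes of -0.61 ± 0.07 (adjusted p = 2.09e-09) and -0.89 ± 0.07 (adjusted p = 4.04e-15). The 3 subunits of the NDC80 complex, which grips microtubules, differed among themselves with wortmannin, from -0.20 ± 0.05 for NDC80 to -0.44 ± 0.08 for NUF2. SPC25 and CENPA were near the threshold with wortmannin (adjusted p = 0.0347 and 0.0116). Without vehicle library 3 the adjusted p of SPC25 was 0.151, and without vehicle library 1 that of CENPA was 0.0733. SPC25 also lost its call without vehicle library 2 (0.0622) or wortmannin library 2 (0.128) or 3 (0.0776), and CENPA without wortmannin library 2 (0.0519). NDC80 had an adjusted p of 0.0685 with wortmannin in a fit of these libraries alone, and SPC25 one of 0.0875 with library totals in place of TMM.

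All 6 spindle and microtubule factors fell. PRR11, a late cell cycle gene, was at 69.3, 72.5 and 78.8 CPM in vehicle, 42.9, 46.1 and 48.2 with wortmannin and 42.8, 41.7 and 40.4 with LY294002. Both inhibitors lay below vehicle, with log2 fold changes of -0.69 ± 0.07 (adjusted p = 6.39e-11) and -0.82 ± 0.07 (adjusted p = 3.41e-14). TPX2 changed by -0.49 ± 0.05 and -0.80 ± 0.05, the hyaluronan-mediated motility receptor HMMR, a spindle protein, by -0.57 ± 0.06 and -0.75 ± 0.06, and ASPM, a spindle pole protein, by -0.52 ± 0.05 and -0.75 ± 0.05. DLGAP5 (HURP), which stabilises spindle fibres, changed by -0.60 ± 0.06 and -0.63 ± 0.06, and NUSAP1 had -0.36 ± 0.05 and -0.51 ± 0.05.

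All 7 genes of anaphase, ubiquitin transfer and chromatid separation fell. PTTG1 (securin), the inhibitor of separase, was at 108, 109 and 110.2 CPM in vehicle, 63.2, 65.6 and 71.1 with wortmannin and 71.6, 72.8 and 65.6 with LY294002. This was the largest fall with wortmannin of the 45 genes (-0.71 ± 0.06, adjusted p = 5.7e-12), and with LY294002 the change was -0.64 ± 0.06 (adjusted p = 1.1e-11). UBE2C was at 107, 109.7 and 109 CPM in vehicle, 73.7, 82.8 and 83.0 with wortmannin and 64.0, 66.1 and 59.3 with LY294002. Its log2 fold changes were -0.44 ± 0.06 (adjusted p = 2.99e-07) and -0.78 ± 0.06 (adjusted p = 8.31e-15), and the groups did not overlap. CDC20 changed by -0.58 ± 0.04 and -0.71 ± 0.04, TOP2A, the topoisomerase that untangles sister chromatids, by -0.33 ± 0.05 and -0.55 ± 0.05, and separase by -0.27 ± 0.07 and -0.46 ± 0.07.

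The 4 cytokinesis genes fell with both. PRC1, which bundles the microtubules of the central spindle, was at 226, 225 and 236 CPM in vehicle, 163, 163 and 176 with wortmannin and 141, 127 and 132 with LY294002. The groups were apart, with log2 fold changes of -0.45 ± 0.04 (adjusted p = 9.34e-13) and -0.78 ± 0.04 (adjusted p = 1.22e-21). ANLN (anillin), the scaffold of the contractile ring, changed by -0.31 ± 0.05 and -0.69 ± 0.05, the exchange factor ECT2 by -0.37 ± 0.04 and -0.68 ± 0.04, and RACGAP1 by -0.34 ± 0.05 and -0.63 ± 0.05.

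Set directly against each other, the inhibitors differed in most of the set, with LY294002 lower in every gene that passed. In this comparison 32 of 45 genes were higher with wortmannin, where 12.7% of all genes were higher, and none was lower. The median of the 45 was 0.25 and that of all genes tested -0.0030. The largest differences were those of MKI67 (0.56 ± 0.09, adjusted p = 4.03e-06), FOXM1 (0.50 ± 0.05, adjusted p = 8.06e-10), CCNA2, which is cyclin A2 (0.45 ± 0.05, adjusted p = 8.06e-10), and PLK1 (0.45 ± 0.07, adjusted p = 6.27e-07). The libraries of these genes did not overlap between the inhibitors: CCNA2 was at 91.5, 96.6 and 107 CPM with wortmannin and 71.5, 68.8 and 74.9 with LY294002, against 128, 125 and 139 in vehicle. CCNA2 shares 254 exon bases with EXOSC9 on the opposite strand, which had 32.5% of its counts.

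By role, the leaders of the other groups were NDC80 (0.41 ± 0.05, adjusted p = 2.18e-09), BUB1B (0.39 ± 0.04, adjusted p = 2.01e-09), ANLN (0.38 ± 0.05, adjusted p = 9.57e-09), INCENP (0.37 ± 0.05, adjusted p = 6.28e-08), UBE2C (0.34 ± 0.06, adjusted p = 2.86e-05) and TPX2 (0.31 ± 0.05, adjusted p = 2.08e-05). NDC80 was at 40.0, 37.0 and 36.1 CPM with wortmannin and 28.0, 26.9 and 30.3 with LY294002, and BUB1B at 85.0, 82.4 and 90.1 and 67.3, 61.4 and 67.1. ANLN was at 150.4, 152 and 159.6 CPM with wortmannin and 118, 116 and 119.9 with LY294002, and INCENP at 93.7, 91.6 and 102 and 79.1, 72.5 and 71.2. TPX2 was at 237, 246 and 273 CPM with wortmannin and 216, 204 and 191 with LY294002. In each of these genes all wortmannin libraries were above all LY294002 libraries. CDK1, CKS1B and MAD2L1, which did not pass against vehicle with wortmannin, were higher with it than with LY294002 by 0.35 ± 0.06, 0.35 ± 0.07 and 0.28 ± 0.09.

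The other 13 genes did not pass the test between the inhibitors. CCNB2 (cyclin B2) and CDC25B, a CDK1-activating phosphatase, had the smallest differences, 0.01 ± 0.04 (95% interval -0.07 to 0.09) and 0.01 ± 0.03 (-0.06 to 0.08). DLGAP5 differed by 0.03 ± 0.06 (-0.08 to 0.15), UBE2S by 0.07 ± 0.06 (-0.05 to 0.18), and PTTG1 by -0.07 ± 0.06 (-0.20 to 0.06). The intervals reached higher for CCNB1 (-0.03 to 0.24), CDC25C (-0.08 to 0.29), PRR11 (-0.00 to 0.27) and BIRC5 (-0.08 to 0.30). For NUF2 (0.04 to 0.36) and SPC25 (0.06 to 0.44) the interval lay above 0 although the adjusted p was 0.0638 and 0.0541. The widest intervals were those of CENPA (-0.09 to 0.37) and CKS2 (-0.39 to 0.18). In a fit of the inhibitor libraries alone, 21 of 45 genes passed, with an adjusted p of 0.0621 for CKS1B and 0.111 for MAD2L1. MAD2L1, whose libraries overlapped between the inhibitors, also lost its call without library 1 of wortmannin (0.123) or library 1 (0.0567) or 2 (0.116) of LY294002.

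Genes of DNA replication, which act before mitosis, also differed between the inhibitors. In a list of 33 replication and G1/S genes, 32 fell with LY294002 (median -0.51), where 20.5% of all genes fell, among them CDC45 of the replicative helicase (-0.72 ± 0.05, adjusted p = 2.34e-17) and GINS4, its partner (-0.77 ± 0.13, adjusted p = 6.33e-06). With wortmannin 2 rose and 3 fell, with a median of 0.02, and 3 of 33 is near the 7.46% of all genes that fell. In the direct comparison 31 of 33 were higher with wortmannin, where 12.7% of all genes were, with a median of 0.52, led by CLSPN, the checkpoint mediator claspin (0.83 ± 0.06, adjusted p = 5.79e-16), and MCM10 (0.75 ± 0.04, adjusted p = 7.63e-18). The median of the 45 mitotic genes in that comparison was 0.25.

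Other mitotic genes fell less widely with wortmannin than with LY294002. Of 80 genes in 5 further lists, 49 fell with wortmannin (median -0.23), where 7.46% of all genes fell. With LY294002, 71 fell and 1 rose (median -0.59), where 20.5% of all genes fell. All 12 mitotic kinesins fell with both, with medians of -0.37 and -0.64. KIF20A, a motor of the central spindle, went from 67.0 ± 2.48 CPM in vehicle to 46.6 ± 2.89 with wortmannin (SD, n = 3 each), and KIF18B from 55.0 ± 3.10 to 30.4 ± 3.03 with LY294002. Of 10 condensin and shugoshin genes, 9 and 10 fell, among them SGO1 and SGO2, which guard centromeric cohesion, by -0.86 ± 0.09 and -0.81 ± 0.09 with LY294002. Of 24 other kinetochore genes 9 and 22 fell, of 21 other entry and spindle genes 15 and 20, and of 13 subunits and regulators of the anaphase-promoting complex 4 and 7, with 1 rising with LY294002. Of the MuvB, DREAM and B-MYB list (11 genes), 2 fell with wortmannin, and 9 fell and 2 rose with LY294002, where MYBL2, which is B-MYB, changed by -0.69 ± 0.07 (adjusted p = 1.14e-11). Among 8 brakes on CDK1 and G2 arrest genes, 1 rose and 3 fell with wortmannin, including CDKN1A (p21, -0.41 ± 0.14, adjusted p = 0.0361), and 1 rose and 1 fell with LY294002, CCNG2 by 0.32 ± 0.07 and SFN by -0.34 ± 0.06. Over all 16767 genes 2300 changed with wortmannin and 6565 with LY294002, so the 2 of 8 brakes with LY294002 are a smaller share than that of all genes.

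Glycyrrhizae at 500 µg/mL raised 31 of 45 genes against vehicle, where 3.65% of all genes rose, and lowered none. The median log2 fold change was 0.22, that of all genes tested was -0.0045, and all 45 values were above 0, from 0.04 to 0.36. Sample codes put the extracts in other sets of libraries than the vehicle and inhibitors, so extract and set cannot be told apart here. Without vehicle library 2, 17 genes passed. Of the 31, 15 also passed at 500 against 20 µg/mL of Glycyrrhizae, a comparison that uses the same libraries at 500 µg/mL and no vehicle.

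CDK1 was at 78.4, 77.6 and 69.0 CPM in vehicle and 95.0, 94.3 and 94.9 with Glycyrrhizae at 500 µg/mL, and its log2 fold change was 0.34 ± 0.06 (SE, adjusted p = 0.000327). NEK2 went from 27.3, 27.3 and 27.2 CPM to 32.8, 34.1 and 33.1 (0.29 ± 0.06, adjusted p = 0.000514), and CDCA3, a trigger of mitotic entry, from 42.8, 41.6 and 46.3 to 52.4, 54.4 and 51.5 (0.28 ± 0.05, adjusted p = 0.000343). In these genes the treated libraries lay close together and above all vehicle libraries. RACGAP1 went from 91.7, 86.3 and 86.5 CPM to 105, 101 and 108 (0.25 ± 0.05, adjusted p = 0.00171), and NUSAP1 from 152, 151 and 164 to 184, 181 and 186 (0.23 ± 0.05, adjusted p = 0.00299). MAD2L1 went from 70.7, 68.2 and 59.995 CPM to 86.1, 86.6 and 79.7 (0.34 ± 0.08, adjusted p = 0.00716), but without vehicle library 3, its lowest, the adjusted p was 0.0941. These 3 genes also had no overlap with vehicle. At 500 against 20 µg/mL of Glycyrrhizae, CDCA3 (0.20 ± 0.05, adjusted p = 0.0143) and NUSAP1 passed, whereas CDK1 (0.12 ± 0.06, adjusted p = 0.341), NEK2 (0.13 ± 0.05, adjusted p = 0.195), RACGAP1 (0.12 ± 0.05, adjusted p = 0.227) and MAD2L1 (0.06 ± 0.08, adjusted p = 0.799) did not.

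CENPA and BIRC5 had wider errors. CENPA went from 16.1, 14.8 and 14.0 CPM to 19.5, 19.3 and 18.8 (0.36 ± 0.10, adjusted p = 0.0233), and BIRC5 from 67.4, 62.3 and 57.4 to 79.4, 74.2 and 81.5 (0.33 ± 0.09, adjusted p = 0.0203). Each lost its call when 1 of 4 libraries was left out, with adjusted p up to 0.14 for CENPA and 0.155 for BIRC5, both without vehicle library 3. The others were vehicle library 2 (0.0782 and 0.0621), Glycyrrhizae library 1 (0.0761 and 0.0684) and, for CENPA, library 2 (0.0586) and, for BIRC5, library 3 (0.0851). At 500 against 20 µg/mL neither passed, with 0.08 ± 0.10 (adjusted p = 0.757) for CENPA and 0.05 ± 0.09 (adjusted p = 0.858) for BIRC5. CENPA shares 138 exon bases with SLC35F6 on the same strand, and SLC35F6 had 190% of its counts.

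The 14 genes that did not pass with Glycyrrhizae included both members of the FOXM1 and Ki-67 pair. MKI67 was at 1036, 1020.5 and 1075 CPM against 944, 958 and 1151 in vehicle (0.04 ± 0.09, adjusted p = 0.865), and FOXM1 at 225, 236 and 233 (0.08 ± 0.05, adjusted p = 0.403). PLK1 (0.16 ± 0.06, adjusted p = 0.124), CDKN3 (0.11 ± 0.06, adjusted p = 0.338), PRR11 (0.04 ± 0.06, adjusted p = 0.765), TPX2 (0.16 ± 0.05, adjusted p = 0.0612) and CENPE (0.18 ± 0.06, adjusted p = 0.0888) did not pass either. The others were CDC25B, CKS2, INCENP, CDCA8, BUB1, HMMR and UBE2S, with log2 fold changes between 0.08 for CDC25B and 0.36 for CKS2.

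Poria at 500 µg/mL raised 18 of 45 genes against vehicle, where 4.6% of all genes rose, with a median of 0.15 against -0.01 for all genes tested, and lowered none. All 4 cytokinesis genes and 5 of 7 anaphase genes rose, and none of the 6 spindle factors did. CDK1 was at 92.5, 84.6 and 95.0 CPM, against 78.4, 77.6 and 69.0 in vehicle (0.27 ± 0.06 (SE), adjusted p = 0.00358), and NEK2 was at 31.6, 32.7 and 34.4, against 27.3, 27.3 and 27.2 (0.27 ± 0.06, adjusted p = 0.00121). ANLN was at 209, 228 and 229.6 CPM, against 189.6, 185 and 199 (0.22 ± 0.05, adjusted p = 0.0013), and NDC80 at 49.3, 51.0 and 49.2, against 44.9, 41.3 and 43.9 (0.20 ± 0.04, adjusted p = 0.00286). All treated libraries of these 4 genes were above all vehicle libraries. UBE2C was at 129.9, 128 and 127 CPM, against 107, 109.7 and 109 (0.24 ± 0.06, adjusted p = 0.00634), and MAD2L1 at 87.9, 77.6 and 86.2, against 70.7, 68.2 and 59.995 (0.34 ± 0.08, adjusted p = 0.00779), again without overlap. Of the 18, 10 also passed at 500 against 20 µg/mL of Poria, a comparison that uses the same libraries at 500 µg/mL, and MAD2L1 did not (0.24 ± 0.08, adjusted p = 0.0831).

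The Poria calls rest on small changes. Without vehicle library 3, 11 genes passed and the adjusted p of CDK1 was 0.0657 and that of MAD2L1 0.094, and without vehicle library 2, 10 passed. In a fit of the vehicle and Poria libraries of this comparison alone, 3 passed, and ANLN, NDC80 and CDK1 had adjusted p of 0.0689, 0.0904 and 0.0652. Not called were 27 genes, of which 3 lay below vehicle: MKI67 (-0.01 ± 0.09), HMMR (-0.04 ± 0.06) and PRR11 (-0.05 ± 0.06). The other 24 ran from 0.01 for CDKN3 to 0.22 for CKS2.

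Within an extract, 500 was compared with 20 µg/mL, which leaves out the vehicle and stays in 1 set of sample codes. Glycyrrhizae raised 23 of 45 genes in this comparison, where 1.83% of all genes rose, and Poria 11, where 3.21% rose, and neither lowered any. The medians were 0.17 and 0.12, and all 45 genes had a higher mean at 500 than at 20 µg/mL in both. The means rose in the order 20, 100, 500 µg/mL for 37 genes with Glycyrrhizae and 27 with Poria.

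**Figure D4:**
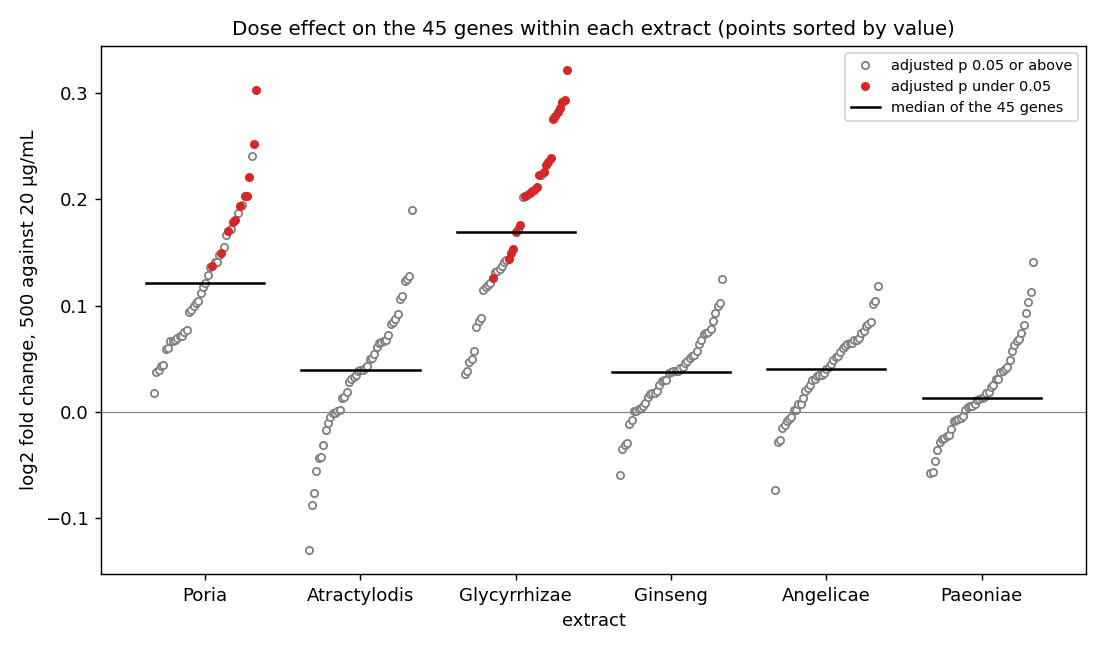
Log2 fold change of each of the 45 genes at 500 against 20 µg/mL within each extract, sorted by value, filled where the adjusted p was under 0.05, with a line at the median. Medians are 0.17 for Glycyrrhizae and 0.12 for Poria, and 0.01 to 0.04 for the other 4 extracts, which have no filled point.

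With Glycyrrhizae, CCNA2 was at 123, 131 and 128 CPM at 20 µg/mL, 137, 144 and 135 at 100 and 165, 152 and 160.0 at 500 µg/mL. The log2 fold change of 500 against 20 was 0.32 ± 0.05 (SE, adjusted p = 2.64e-05), and the doses did not overlap. NUSAP1, a microtubule binder, was at 153, 153 and 144 CPM, then 166, 165 and 164, then 184, 181 and 186 (0.29 ± 0.05, adjusted p = 0.000388). PTTG1 was at 112, 99.9 and 106 CPM, then 117, 109 and 120.1, then 128, 127 and 133 (0.29 ± 0.06, adjusted p = 0.00337). Here the libraries at 500 were above all those at 20, and for PTTG1 the library ranges at 20 and 100 overlapped. PLK1 was at 171, 161 and 155 CPM at 20 and 198, 197 and 196 at 500 µg/mL (0.28 ± 0.06, adjusted p = 0.0056), and ANLN at 189, 209 and 187 and 229, 223 and 225 (0.21 ± 0.05, adjusted p = 0.00362). TTK was at 52.6, 53.3 and 47.2 CPM and 58.0, 60.2 and 60.7 (0.23 ± 0.06, adjusted p = 0.0143), NUF2 at 19.2, 21.4 and 19.6 and 24.2, 23.2 and 26.4 (0.29 ± 0.07, adjusted p = 0.0134). FOXM1 was at 204, 206 and 192 CPM and 225, 236 and 233 (0.21 ± 0.05, adjusted p = 0.0159), and INCENP at 118, 113 and 109.8 and 126, 132 and 122 (0.15 ± 0.05, adjusted p = 0.0492). None of the 6 genes from PLK1 to INCENP overlapped between the doses.

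Many of these calls rested on library 3 at 20 µg/mL: without it 4 genes passed, and the adjusted p was 0.0625 for ANLN, 0.0697 for PLK1, 0.0914 for NUF2, 0.147 for FOXM1, 0.185 for TTK and 0.27 for INCENP. Without library 3 at 500 µg/mL 10 passed and without library 1 at 500 µg/mL 15, and with library totals in place of TMM 10 passed, with an adjusted p of 0.186 for INCENP, 0.0602 for TTK and 0.0578 for NUF2. In a fit of these libraries alone the adjusted p was 0.107 for INCENP and 0.0533 for TTK. Without library 3 at 500 µg/mL the adjusted p was 0.122 for NUF2, 0.0654 for FOXM1, 0.074 for TTK and 0.0557 for INCENP. INCENP lost its call without any 1 of 5 libraries, with adjusted p from 0.0557 to 0.27, NUF2 also without library 1 at 20 µg/mL (0.0605), and FOXM1 also without library 2 at 500 µg/mL (0.0614).

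With Poria, CCNA2 was at 125, 129 and 131 CPM at 20 µg/mL, 135, 138 and 141 at 100 and 145, 159.7 and 154 at 500 µg/mL (0.25 ± 0.05, adjusted p = 0.000538 for 500 against 20). UBE2C was at 110.0, 102 and 99.9 CPM, then 118, 116 and 103, then 129.9, 128 and 127 (0.30 ± 0.06, adjusted p = 0.000635). CCNA2 libraries of the 3 doses were apart, and those of UBE2C overlapped between 20 and 100 µg/mL. ANLN was at 189.6, 192 and 198 CPM at 20 and 209, 228 and 229.6 at 500 µg/mL (0.20 ± 0.05, adjusted p = 0.00337), and NDC80 at 43.3, 44.9 and 42.4 and 49.3, 51.0 and 49.2 (0.19 ± 0.04, adjusted p = 0.00432). NEK2 was at 26.3, 30.7 and 30.0 CPM and 31.6, 32.7 and 34.4 (0.18 ± 0.06, adjusted p = 0.042). In these genes the doses did not overlap, whereas TTK passed the test with overlapping libraries, at 46.4, 49.7 and 52.7 CPM and 52.5, 59.9 and 61.3 (0.22 ± 0.06, adjusted p = 0.0125).

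Leaving out Poria library 2 at 500 µg/mL, or library 1 or 2 at 20 µg/mL, left 5, 6 and 7 genes. In the same order the adjusted p of TTK was 0.0671, 0.0978 and 0.05, and that of NEK2 was 0.08 and 0.292 without library 2 at 500 and library 1 at 20 µg/mL. NEK2 also lost its call without library 3 at 500 (0.188) or at 20 µg/mL (0.0534), and TTK without library 3 at 500 µg/mL (0.108). With library totals in place of TMM 6 genes passed, with no filter on low counts 7, and in a fit of these libraries alone 2 did, with an adjusted p of 0.0831 for ANLN and 0.1 for NDC80. Of the genes raised by 500 against 20 µg/mL, 7 were raised in both extracts, 63.6% of the 11 of Poria and 30.4% of the 23 of Glycyrrhizae: ANLN, AURKA, CCNA2, CDCA3, PRC1, TTK and UBE2C. Since Glycyrrhizae raised 23 of all 45 members, a large part of the 11 would be shared also if the calls were unrelated. Whether the overlap exceeds that was not tested.

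Poria and Atractylodis share a set of sample codes, as do Glycyrrhizae and Ginseng, and Angelicae and Paeoniae, so the dose effect of the extracts in a pair was compared directly. No member passed in these 3 comparisons (edgeR quasi-likelihood test, with 0.394%, 0.0477% and 0% of all genes called), and DESeq2 called 0 as well. At an unadjusted p under 0.05 there were 7, 20 and 0 of 45 members, against 8.09%, 6.24% and 2.45% of all genes. The median of the difference was 0.08 for Poria less Atractylodis, 0.14 for Glycyrrhizae less Ginseng and 0.02 for Angelicae less Paeoniae. The dose effects of Poria and Glycyrrhizae were thus not shown to differ from those of the extracts they share a set with.

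In the other 4 extracts, 500 against 20 µg/mL moved none of the 45 genes (edgeR quasi-likelihood test), with medians of 0.04 for Atractylodis, Ginseng and Angelicae and 0.01 for Paeoniae. Over the alternatives in the processing these medians ranged from 0.01 to 0.07 for Atractylodis, 0.02 to 0.05 for Ginseng, 0.03 to 0.05 for Angelicae and -0.02 to 0.06 for Paeoniae. The share of all genes called was 0%, 0%, 0.0179% and 0.0358% in that order, and members with an unadjusted p under 0.05 numbered 4, 2, 3 and 0, beside 5.11%, 4.01%, 2.98% and 3.36% of all genes. DESeq2 called no member in these comparisons.

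Against vehicle, the lower doses and the other extracts moved few members. CDK1 passed with Atractylodis at 500 µg/mL, where 0.197% of all genes rose (0.29 ± 0.06, adjusted p = 0.0163), with Angelicae at 500 µg/mL, where 0.119% rose (0.27 ± 0.06, adjusted p = 0.0495), and with Glycyrrhizae at 100 µg/mL, where 0.221% rose (0.28 ± 0.06, adjusted p = 0.0216). NEK2 also passed with Glycyrrhizae at 100 µg/mL (0.25 ± 0.06, adjusted p = 0.0235), and CDC20 with Atractylodis at 100 µg/mL, where 0.221% of all genes rose (0.18 ± 0.04, adjusted p = 0.0317). CDC20 was at 158, 160.0 and 153 CPM there, against 146, 135 and 134 in vehicle, and CDK1 at 96.0, 91.2 and 88.0 with Atractylodis and 89.2, 93.1 and 89.3 with Angelicae at 500 µg/mL. With Glycyrrhizae at 100 µg/mL, CDK1 was at 91.4, 91.3 and 90.8 CPM and NEK2 at 32.0, 31.9 and 33.5. None of these libraries overlapped vehicle, but each of these 5 calls was lost without vehicle library 3, with adjusted p of 0.356 (Atractylodis), 0.327 (Angelicae) and 0.297 (Glycyrrhizae) for CDK1, 0.152 for NEK2 and 0.352 for CDC20. Leaving out a treated library also ended most of them: for CDK1 library 1 (0.148) or 2 (0.0567) of Atractylodis, library 1 (0.16), 2 (0.122) or 3 (0.118) of Angelicae and library 1 (0.0659), 2 (0.1) or 3 (0.0894) of Glycyrrhizae. For NEK2 the values were 0.0592, 0.0797 and 0.17, and for CDC20 0.103, 0.155 and 0.0514, without treated library 1, 2 or 3. Without vehicle library 2 the adjusted p was 0.0801 for NEK2, 0.18 for CDC20 and 0.082 for CDK1 with Angelicae.

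The remaining 12 comparisons with vehicle, among them all doses of Ginseng and Paeoniae, called no member (edgeR quasi-likelihood test). The members with an unadjusted p under 0.05, which are no calls, are given beside the same share of all genes. With Poria at 100 and 20 µg/mL, 0.0417% and 0% of all genes were called, 11 and 2 of 45 members (8.21% and 4.97% of all genes) had an unadjusted p under 0.05, and DESeq2 called no member. With Atractylodis at 20 µg/mL, 0.137% of all genes were called, 10 members (11.9% of all genes) had such a p, and DESeq2 called none, and with Glycyrrhizae at 20 µg/mL, 0.37% were called, with 16 members (18.2%) and 3 by DESeq2. With Ginseng at 500, 100 and 20 µg/mL, 0.352%, 0% and 0% of all genes were called, 15, 10 and 13 members (15.6%, 10.6% and 15.3% of all genes) had such a p, and DESeq2 called 2, 0 and 4. With Angelicae at 100 and 20 µg/mL, 0.00596% and 0.173% of all genes were called, 14 and 15 members (12.1% and 18.3%) had such a p, and DESeq2 called 1 and 4. With Paeoniae at 500, 100 and 20 µg/mL, 0.161%, 0.0477% and 0% of all genes were called, 9, 17 and 3 members (11.3%, 13.7% and 6.94%) had such a p, and DESeq2 called 0, 5 and 0. The medians of the 45 genes ran from -0.02 with Ginseng at 20 µg/mL to 0.06 with Paeoniae at 100 µg/mL, and the medians of all genes tested lay within 0.01 of 0. Over the alternatives these 2 medians ranged from -0.04 to 0.03 and from 0.04 to 0.11.

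All 18 extract comparisons and both comparisons of an inhibitor with vehicle share the same 3 vehicle libraries. The size of each change against vehicle depends on these libraries, also for the falls with the inhibitors. CDK1 ran from 75.0 to 96.0 CPM over the 51 extract libraries, with a median of 89.3, against 69.0 to 78.4 CPM in vehicle. Of the 51, 50 lay above the highest vehicle library, and the 1 that did not, at 75.0 CPM, was of Poria at 20 µg/mL. NEK2 ran from 26.3 to 34.4 CPM, MAD2L1 from 66.3 to 88.2 CPM and RACGAP1 from 84.5 to 108 CPM, with 48, 47 and 41 of the 51 above the highest vehicle library of each. BIRC5 ran from 62.6 to 92.3 CPM, CENPA from 14.1 to 20.95 CPM and NDC80 from 42.4 to 52.0 CPM, with 45, 42 and 42 above it. So these 7 genes, which are among those named for Glycyrrhizae and Poria at 500 µg/mL, lay above vehicle in most libraries of the other extracts and doses as well. The same held for other members, among them AURKB and ESPL1 (47 of 51 each), TOP2A (45), ECT2 (43), CDC25C (42), BUB1B (41) and CCNB1 and CKS2 (40 each). MKI67 ran from 777 to 1105 CPM with a median of 907, against 944 to 1151 CPM in vehicle, and 31 of 51 libraries lay below the lowest vehicle library. CDKN3, PRR11, FOXM1 and PTTG1 also lay below the lowest vehicle library of each, in 43, 34, 32 and 27 of 51. They lay above the highest in 5, 1, 4 and 16 of 51. PTTG1 had a narrow vehicle range, 108 to 110.2 CPM, and an extract median of 107 CPM. Sample set and extract cannot be told apart in these values.

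**Figure D5:**
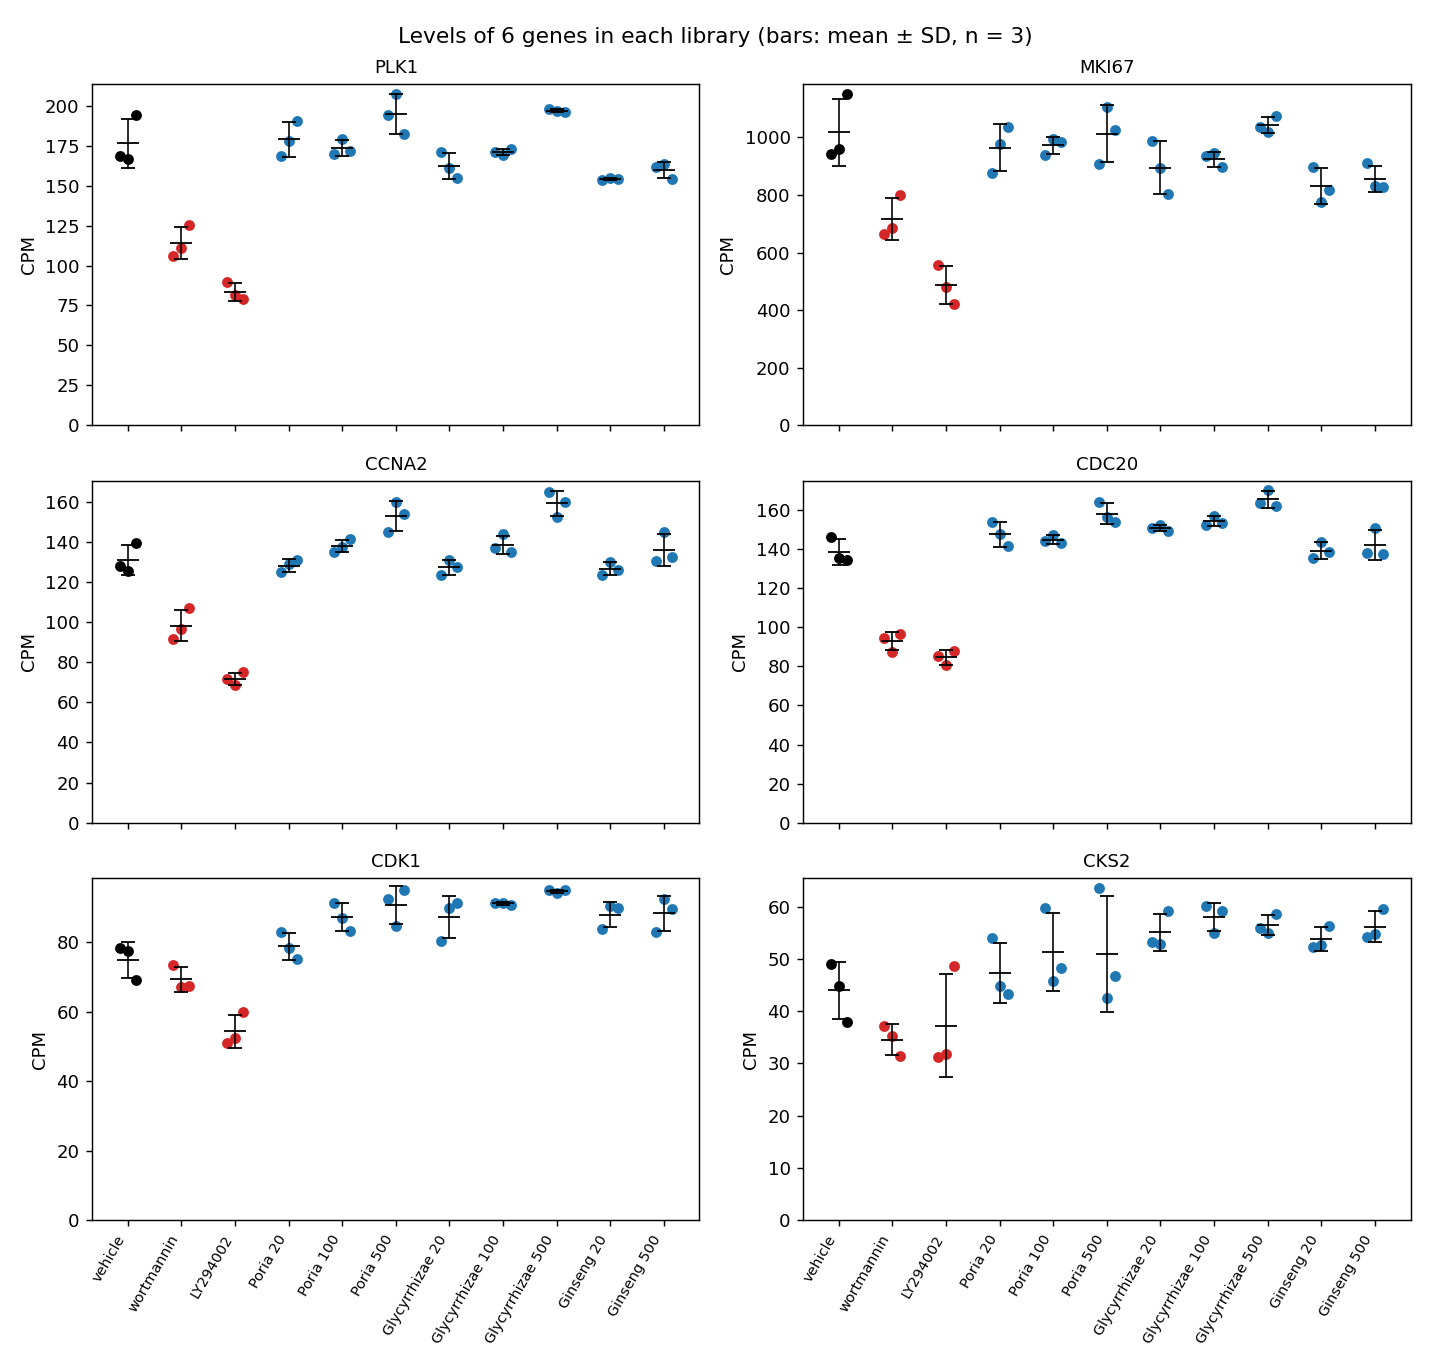
CPM of PLK1, MKI67, CCNA2, CDC20, CDK1 and CKS2 in each library (points) of 11 groups, with the mean ± SD (n = 3). CDK1 libraries of the extracts (75.0 CPM or more) lie at or above the upper part of the vehicle range of 69.0 to 78.4 CPM and MKI67 of the extracts overlaps or lies below vehicle.

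Replication genes also rose against vehicle with Poria and Glycyrrhizae at 500 µg/mL. These comparisons use the same 3 vehicle libraries, from another set of sample codes, so extract and set cannot be told apart here either. Of 33, 20 rose and none fell with each extract, where 4.6% and 3.65% of all genes rose, with medians of 0.19 and 0.18. CDC45 went from 51.4 ± 1.61 CPM in vehicle to 62.0 ± 4.27 with Poria (SD, n = 3 each, 0.27 ± 0.04, adjusted p = 5.26e-05), and TK1 from 132 ± 6.94 to 159 ± 5.93 CPM with Glycyrrhizae (0.26 ± 0.05, adjusted p = 0.00101). Of the 80 other mitotic genes, 22 rose with Poria and 31 with Glycyrrhizae, beside the same 4.6% and 3.65%, and none fell. NCAPG2, a condensin subunit, rose with both (0.24 ± 0.04, adjusted p = 1.06e-05, and 0.23 ± 0.04, adjusted p = 2.25e-05), as did the centromere gene CENPW (0.43 ± 0.11 and 0.44 ± 0.11) and HASPIN, the histone kinase that recruits the passenger complex (0.28 ± 0.08 for each). Of the 8 brakes, 1 rose and 2 fell with Poria, and 1 fell with Glycyrrhizae, where 1256 and 1158 of all 16767 genes changed. BTG2, an antiproliferative gene on that list, fell from 44.0 ± 3.91 CPM in vehicle to 28.4 ± 0.93 with Poria (-0.63 ± 0.08, adjusted p = 5.33e-08) and 31.4 ± 2.16 with Glycyrrhizae (-0.49 ± 0.08, adjusted p = 2.1e-05).

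Some members overlap other genes or have copies. CDC25C shares 293 exon bases with FAM53C on the opposite strand, which had 286% of its counts, and PLK1 shares 42 with ERN2, which had 10.9% of its counts. The library kit keeps strand, but the strand setting of the counting is not given in the sources used here, so values of these genes, CCNA2, FOXM1 and CENPA are less certain. Among processed pseudogenes and paralogues, UBE2SP1 had 3.04% of the counts of UBE2S and CKS1BP3 0.558% of those of CKS1B, and each of the other copies found had under 0.3%.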

How the data were processed

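RNA of HT29 cells was measured in 60 libraries of 21 groups (100 bp read pairs from a directional mRNA kit, per the labels). The deposited table holds expected counts per gene, with no normalization by the authors seen in its values. The submitters' processing notes name FastQC 0.11.9, Trim Galore 0.6.5, STAR 2.7.3a and RSEM 1.3.3. The sources used here do not give its strand setting or annotation release. Of the values above 0, 24.2% were not whole and were rounded. Of 273 columns, 60 matched the labels and 213 were not used. Groups were taken from the labels.

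Genes were kept by edgeR's filter (minimum count 10, minimum total 15). The quasi-likelihood test of edgeR 4.0.16 (R 4.3.3) was fitted over all 60 libraries with TMM scaling and no covariate, with 39 residual degrees of freedom, with Benjamini-Hochberg adjustment over 16767 genes in each of 30 comparisons. CPM have no prior count, and the mean log2 CPM per library used a prior count of 2. The code was tested on simulated data. Depth was 20431980 to 35477712 counts per library, and precision is given by the spread of libraries. Members and gene lists were chosen with earlier results of these data known. Genes named with full values are the leaders of each role by absolute change among those called whose libraries did not overlap, plus those that did not pass, and others were chosen after their values were seen. Gene positions and overlaps came from GENCODE 29 and promoters from RefSeq GRCh38.p14. Alternatives were RLE scaling, library totals, no filter, a replicate block, DESeq2 1.42.0, a fit of the compared groups alone and each library left out.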

Additional observations from a re-analysis of the deposited data

How the results depend on the processing

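Over all alternatives, 2142 values of single called genes kept direction and call, 318 kept direction but lost the call, and none reversed. The median of the 45 genes stayed between -0.44 and -0.38 with wortmannin, -0.69 and -0.61 with LY294002, 0.21 and 0.28 between the inhibitors, 0.13 and 0.16 with Poria and 0.21 and 0.23 with Glycyrrhizae at 500 µg/mL, and 0.10 and 0.14 and 0.12 and 0.18 for 500 against 20 µg/mL of Poria and Glycyrrhizae. Over all comparisons, 334 values of this median under an alternative lay within the spread between libraries of the reported value and 37 did not. Counts of members called moved by over 1.5 times as follows, and the cause was not tested. In a fit of the compared groups alone they were 21 (wortmannin against LY294002), 3 (Poria 500 µg/mL against vehicle), 0 (Atractylodis 500), 0 (Atractylodis 100), 5 (Glycyrrhizae 100), 1 (Angelicae 20) and 2 (Poria 500 against 20). With no filter on low counts they were 2 (Poria 100), 5, 7 and 2 (Atractylodis 500, 100 and 20), 8 and 7 (Glycyrrhizae 100 and 20), 6, 3 and 8 (Ginseng 500, 100 and 20), 6, 5 and 6 (Angelicae 500, 100 and 20), 1 and 5 (Paeoniae 500 and 100) and 7 (Poria 500 against 20). With DESeq2 they were 3 (Atractylodis 500), 6 and 3 (Glycyrrhizae 100 and 20), 2 and 4 (Ginseng 500 and 20), 4, 1 and 4 (Angelicae 500, 100 and 20) and 5 (Paeoniae 100). With library totals in place of TMM they were 6 (Poria 500 against 20) and 10 (Glycyrrhizae 500 against 20).

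Replicate numbers recur across groups, and numbers were held to pair samples only where every pair of samples correlated above 0.1, which no comparison met. Pair correlations were 0.0387 to 0.108 for wortmannin and vehicle and -0.112 to 0.0381 for LY294002 and vehicle, and over all comparisons of 2 groups they ran from -0.163 to 0.133, with 0.120 at most for Poria and 0.116 for Angelicae at 500 against 20 µg/mL. Whether the numbers mark shared days or cultures is not given. In the mean of the 45 genes, replicate 1 was lowest and replicate 2 highest at each dose of Poria and of Ginseng (for Ginseng -0.01, 0.06 and 0.04 at 500 µg/mL, 0.01, 0.06 and 0.04 at 100 and -0.04, 0.03 and -0.00385 at 20), a hint from the data and not the design. The same order was seen for Atractylodis at 500 and 100 µg/mL and Glycyrrhizae at 100 and 20 µg/mL. It was not seen for Atractylodis at 20 or Glycyrrhizae at 500 µg/mL, nor in the vehicle, inhibitor or Angelicae groups. With a replicate block the members called were 41 with wortmannin, 44 with LY294002, 33 between the inhibitors, 20 with Poria and 35 with Glycyrrhizae at 500 µg/mL, and 13 and 28 for 500 against 20 µg/mL of these extracts. The block moved counts by over 1.5 times to 5 (Glycyrrhizae 100), 2 (Ginseng 500), 3 (Angelicae 500) and 2 (Paeoniae 100).

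When 1 library was left out, counts ranged from 10 to 16 (Poria 500 against vehicle), 17 to 25 (Glycyrrhizae 500), 5 to 12 (Poria 500 against 20), 4 to 22 (Glycyrrhizae 500 against 20), 0 to 4 (Glycyrrhizae 100), 0 to 4 (Glycyrrhizae 20), 0 to 3 (Atractylodis 500), 0 to 1 (Atractylodis 100), 0 to 1 (Atractylodis 20), 0 to 3 (Ginseng 500), 0 to 2 (Ginseng 100) and 0 to 2 (Angelicae 500). Leaving out a Paeoniae library leaves 1 in its group, which is then assumed to vary like the others.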
